A study of Mus musculus with 19 samples.

Results

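The 9 unaffected livers of the series were compared by the Trp53 genotype given in their labels: 5 livers of Trp53 R246S mice against 4 livers of mice with floxed Trp53, out of 19 arrays in all. The question was whether the genotypes differ by inherited segments near Trp53 on Chr11 or elsewhere on the autosomes, and whether liver tissue outside the tumors carries low-level aneuploidy. Every mouse was Mad2(f/f) with AlbuminCre, so Mad2l1 was floxed in both groups, and each liver came from a mouse that also bore a liver tumor. The floxed livers were p53(f/f) in mice 2430 and 6199 and p53(f/+) in mice 5884 and 5901, all females aged 12 to 16.9 months. The R246S livers came from the females 6240 and 6602 and the males 6487, 6565 and 6642, aged 12.3 to 16.2 months. Their genotype label is p53ser246+, which does not state how many copies of the mutant allele a mouse carried. Mice and control livers shared a background of the C57BL/6 and 129 strains. Female liver DNA was hybridized with male control liver DNA and male liver DNA with female control, so among R246S livers sex and control DNA cannot be told apart, and the floxed livers hold no male.

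Trp53 encodes the transcription factor p53, which halts or kills cells after DNA damage, and Mad2l1 encodes a protein of the spindle assembly checkpoint, which delays anaphase until chromosomes are attached. AlbuminCre expresses the Cre recombinase from the albumin promoter and so deletes floxed segments in hepatocytes, while endothelial, stellate and blood-derived cells of the same tissue keep them. Alleles engineered in embryonic stem cells of a 129 strain and bred to C57BL/6 keep flanking donor chromosome, and strain haplotypes differ in copy number and in bases under array probes. In array comparative genomic hybridization (aCGH) both kinds of difference change the ratio of sample to control DNA. A change of cell type content leaves inherited differences in place, since all cells of a mouse share them.

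Values are log2 ratios of liver over control DNA, centred on the autosomal median of each array. In the females, with 2 copies of the X to 1 in the male control, the X averaged 0.89 to 1.04 and in the males −1.02 to −0.90, which is the sign the sex labels call for in all 9 livers. The spread between neighbouring probes was 0.22 to 0.29 in floxed and 0.22 to 0.42 in R246S livers, with the highest value in mouse 6240. Arrays were scanned on 3 days. The first day held 3 floxed livers, the last 4 R246S livers, and the middle day 1 of each. Scan day and genotype can therefore be told apart only in the pair of mice 6199 and 6487. This pair also differs in sex and control DNA, which cannot be told apart from genotype there. The pedigree of the mice is not given in the sources used here, and livers of a genotype may share parents.

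Over 11063 windows of 20 neighbouring probes, 15 differed between the genotypes at an adjusted p under 0.05 in limma, which is 0.136% of windows. These 15 windows lay on 4 autosomes, Chr1, Chr6, Chr15 and Chr18, and none lay on Chr11. R246S livers were higher in 11 windows and lower in 4, by 0.23 to 0.82 in absolute log2 ratio. The groups did not overlap in any of the 15, against 4.37% of all windows. Relative to the mean of its own chromosome in each liver, the groups did not overlap in any of the 15 either, against 3.9% of all windows. The 15 were picked by the difference between these same livers, so the lack of overlap largely follows from that choice. The count was 7 without mouse 2430, 5 without 5901, 6 without 6199, 8 without 6565 and 30 without 6240. With sex as a term, 7 of the 15 were called, and among the 6 females 1 was. Neighbouring windows joined to 9 regions, described below in order along the genome, with coordinates on NCBI37 as the files give them.

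**Figure D1:**
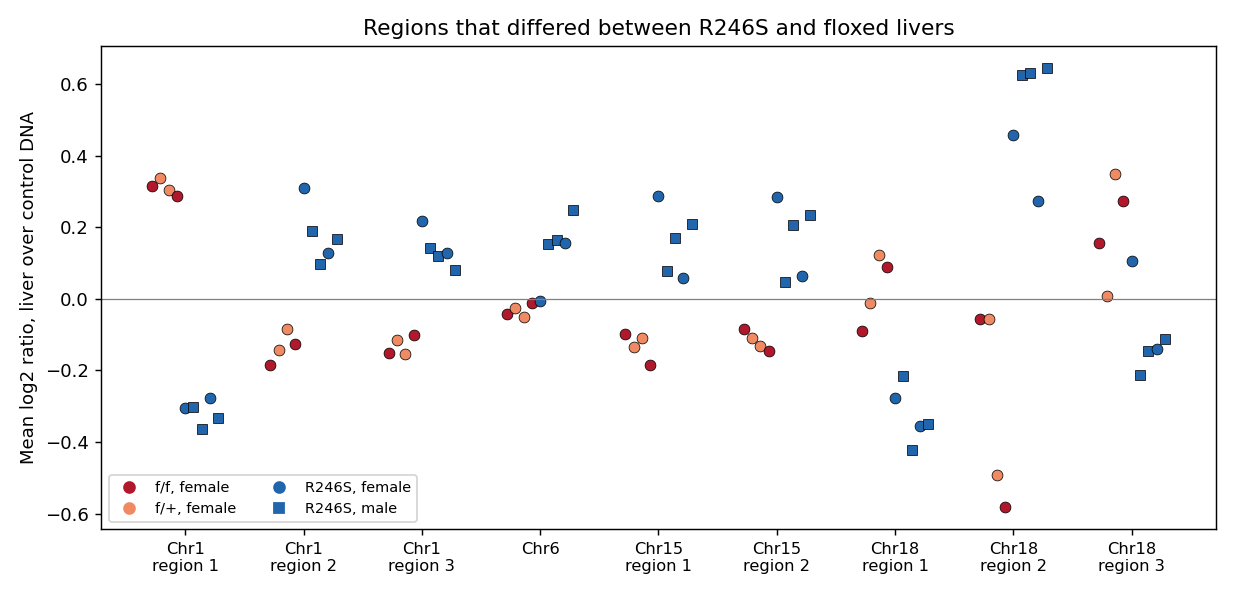
The vertical axis gives the mean log2 ratio of liver over control DNA in each of the 9 regions, with 1 point per liver, coloured by Trp53 genotype, circles for females and squares for males. In Chr1 region 1 the floxed livers lie between 0.29 and 0.34 and the R246S livers between −0.36 and −0.28, and only in Chr18 region 3 do the groups overlap.

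The sharpest difference lay on Chr1. In chr1:173394067-173508510, a window of 114 kb, the ratios of the floxed livers 2430, 5884, 5901 and 6199 were 0.32, 0.34, 0.30 and 0.29, and those of the R246S livers 6240, 6487, 6565, 6602 and 6642 were −0.31, −0.30, −0.36, −0.28 and −0.33. Both f/f and f/+ livers were on the high side and both sexes of R246S on the low side. The difference was −0.63 ± 0.036 (SE, n = 5 and 4), with an adjusted p of 3.27e-07 in limma, and it was called with sex as a term (adjusted p = 1.40e-05), among females alone (adjusted p = 0.000719) and with any liver left out. Within the window, 5 neighbouring probes over 27.5 kb, chr1:173448669-173476207, averaged 0.61 to 0.72 in floxed and −1.09 to −0.94 in R246S livers. In the tumors of the same mice, which the test did not use, the same 5 probes lay at 0.67 to 1.07 in the 4 adenomas of the floxed mice and at −1.13 to −0.57 in the 6 carcinomas of the R246S mice. A second run of 4 probes, chr1:173493944-173508510, lay at 0.26 to 0.43 in floxed and −0.55 to −0.44 in R246S livers.

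Further along Chr1 the direction turned. In chr1:176081641-176354757 the floxed livers lay between −0.18 and −0.08 and the R246S livers between 0.10 and 0.31, and in chr1:176844642-177225266 they lay between −0.16 and −0.10 against 0.08 and 0.22. The mean window differences were 0.31 and 0.27, with lowest adjusted p of 0.0278 and 0.00638 in limma. Mouse 6240 had the highest value in both, and its whole Chr1 averaged 0.17. Relative to the Chr1 average of each liver it stood at 0.14 and 0.05, within the other R246S livers. The first of these regions lost its call without 2430, 5884, 5901 or 6199, with differences of 0.28 to 0.33 and an adjusted p of up to 0.0893 over all 9 livers left out in turn. Around them, from 170 to 180 Mb, the groups did not overlap in 17 of 54 windows, 31.5%, beside 4.37% of all windows, in a range drawn around the called windows. The Chr1 averages of the groups did not overlap either, and relative to them 7 of the 54 windows did not, 13.0%, beside 3.9% of all.

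On Chr6 the ratio of 1 R246S liver lay with the floxed livers. In chr6:17663670-18101903 the floxed livers lay between −0.05 and −0.01, mouse 6240 lay at 0.00, and the other R246S livers 6487, 6565, 6602 and 6642 lay at 0.15, 0.17, 0.16 and 0.25. Chr6 as a whole averaged −0.15 in 6240 and 0.02 to 0.07 in the other R246S livers. Relative to the Chr6 average of each liver, 6240 stood at 0.15, among the other R246S livers at 0.09 to 0.18, and the floxed livers at −0.08 to 0.00. The 2 called windows differed by 0.27 and 0.33, each with an adjusted p of 0.0404, and the window between them by −0.06. Of the 60 probes of the region, 31 had its sign, with a median probe difference of 0.03. Called probes extended over chr6:17321627-20599905. The call was lost with sex as a term (adjusted p = 0.0944) and when any liver but 6240 was left out, where the adjusted p reached 0.155. Without 6240 the difference was 0.34. Both carcinomas of mouse 6240 stood above the average of their own Chr6 here, by 0.13 and 0.15, against 0.18 in each of the other 4.

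On Chr15 the R246S livers were higher. In chr15:30166503-30899478, of 733 kb and 100 probes, the floxed livers 2430, 5884, 5901 and 6199 had ratios of −0.10, −0.13, −0.11 and −0.18. The R246S livers 6240, 6487, 6565, 6602 and 6642 had 0.29, 0.08, 0.17, 0.06 and 0.21. No floxed liver reached the lowest R246S liver. The 3 called windows differed by 0.28 to 0.46, with adjusted p from 0.00487 to 0.0331 in limma. The region kept a call with sex as a term (adjusted p = 0.0269) and with any liver left out, but lost it among females alone (adjusted p = 0.0998). Of its 100 probes, 71 had the sign of the region, with a median probe difference of 0.12. The neighbouring chr15:31485688-31809428 lay at −0.15 to −0.08 in floxed and 0.05 to 0.28 in R246S livers, a difference of 0.28 ± 0.050 (SE), with an adjusted p of 0.0404 that was lost when 2430, 5884, 5901, 6199, 6565 or 6642 was left out, reaching 0.155 at differences of 0.26 to 0.31. Between 28 and 42 Mb, a range again drawn around the called windows, the groups did not overlap in 25 of 60 windows, 41.7%, and relative to the Chr15 average of each liver in 9, 15%. Called probes spread over chr15:30133772-39116274.

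**Figure D2:**
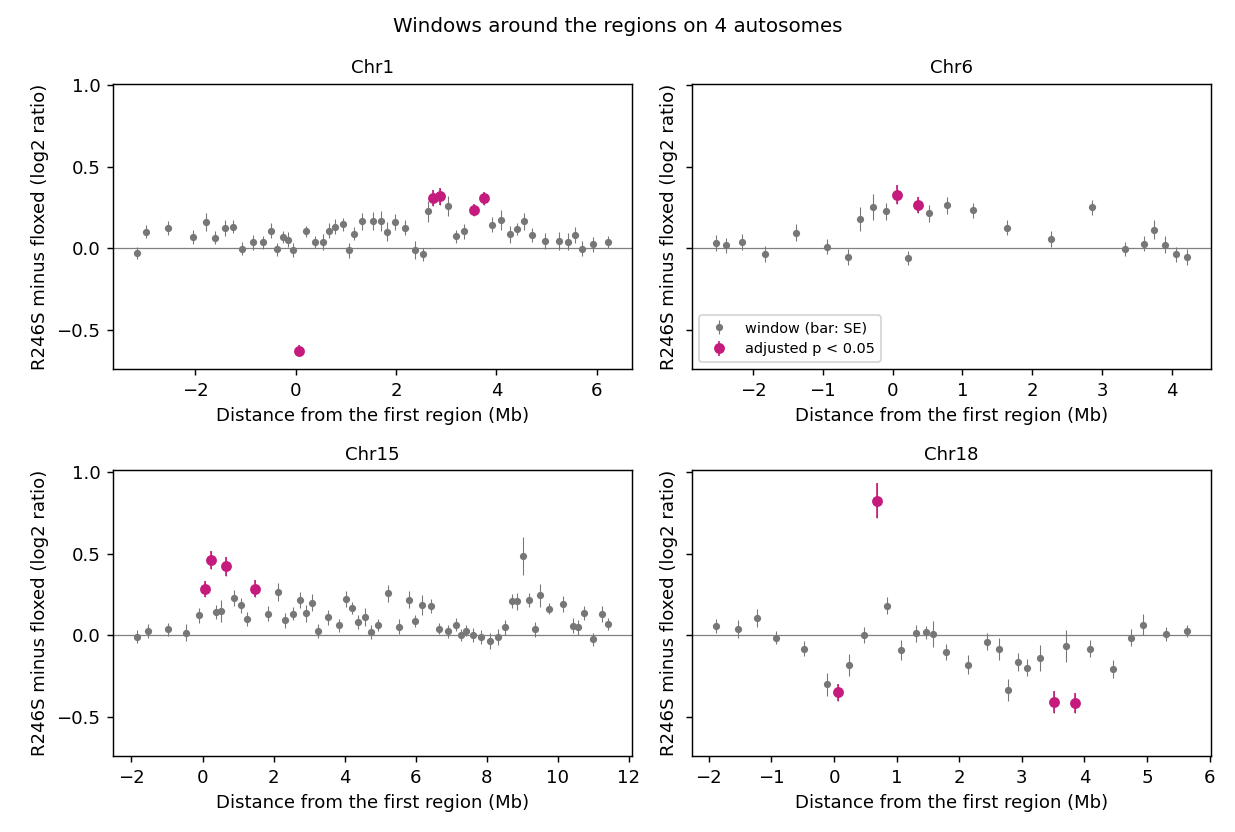
Each point is a window of 20 probes, the horizontal axis its distance in Mb from the start of the first region on that autosome, and the vertical axis the difference of R246S minus floxed livers in log2 ratio, with bars for the SE and larger points for windows past the threshold. Most differences on Chr1 and Chr15 lie above 0, where the chromosome average was also higher in R246S livers, and Chr18 holds called windows of both signs.

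Chr18 held the largest difference and the most called probes, 30 of 107. In chr18:9813671-9989786 the ratios of the R246S livers 6240, 6487, 6565, 6602 and 6642 were 0.46, 0.62, 0.63, 0.27 and 0.65. The floxed livers fell into pairs that did not follow f/f and f/+, with −0.06 in 2430 and in 5884, and −0.49 and −0.58 in 5901 and 6199. The difference was 0.82 ± 0.11 (SE), with an adjusted p of 0.00585 in limma and of at most 0.0357 with any liver left out. It was smaller, 0.66, with sex as a term (adjusted p = 0.0474) and among females alone (adjusted p = 0.146). All 20 probes of the window had the same sign, with a median difference of 0.83, whereas on Chr1 14 of 20 probes of the first region did. The adenomas of 5901 and 6199 stood 0.54 and 0.50 below the average of their Chr18, and those of 2430 and 5884 at −0.06 and 0.02, so the pairs recurred in the tumors.

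The flanking regions of Chr18 went the other way. In chr18:9216788-9345412 floxed livers lay between −0.09 and 0.12 and R246S livers between −0.42 and −0.22, a difference of −0.35 ± 0.052 (SE), with an adjusted p of 0.0119. Of the 20 probes of this region, 13 had its sign, with a median probe difference of −0.06. In chr18:12636146-13142887 the floxed livers were at 0.16, 0.01, 0.35 and 0.27, mouse 6240 at 0.11 and the other R246S livers between −0.21 and −0.11, so that over the whole region the ratios overlapped, although its 2 called windows differed by −0.42 and −0.41. Chr18 as a whole averaged 0.20 in 6240, and relative to the Chr18 average of each liver 6240 stood at −0.10 and the lowest floxed liver, 5884, at −0.01, with no overlap. Both regions lost their calls without 5901 or 6199, with adjusted p of up to 0.0727 and 0.0724 and differences of −0.39 to −0.32 and −0.46 to −0.37, and both were past the threshold no longer with sex as a term (adjusted p = 0.0594 and 0.0742).

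The control DNA was examined through the channels. The Cy5 channel holds the liver DNA and the Cy3 channel the control DNA, whose labels do not differ by Trp53. All 15 called windows were also called from the Cy5 signal alone and none from the Cy3 signal. In each, the difference in Cy3 was under 1/3 of that in Cy5, a share not computed over all windows. The 15 were picked by the ratio of these channels on the same arrays, so their agreement with Cy5 follows in part from that choice. Single channels were less clean over the genome: R246S and floxed arrays differed in 61 windows of Cy5 (0.551%) and in 103 windows of Cy3 (0.931%), so calls from Cy5 alone outside the 15 are given below as values of that channel only. Male and female control DNA differed in 216 windows of Cy3 (1.95%), which include 2 of the 15, and in chr18:9813671-9989786 male control DNA was 0.33 above female control DNA.

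The tumors of the same mice gave separate arrays of the same inherited DNA. In all 15 windows the mean of the 6 carcinomas of R246S mice minus the mean of the 4 adenomas of floxed mice had the sign found in the livers. The share of all windows with such a match of sign was not computed. These tumors came from the mice whose livers picked the windows, so the match adds no further animals. As ratios, carcinomas and adenomas did not overlap in 4 of the 15 windows and 2 of the 9 regions, beside 6.46% of all windows. Relative to the average of the chromosome in each tumor, they did not overlap in 13 of the 15 windows and 8 of the 9 regions, beside 1.71% of all windows. The exception was chr15:31485688-31809428, at −0.26 to −0.05 in adenomas and −0.09 to 0.16 in carcinomas. All adenomas came from floxed mice and all carcinomas from R246S mice, so the genotype difference among tumors cannot be told apart from tumor type.

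At the level of single probes, 107 of 221455 autosomal probes differed (0.0483%), 70 higher and 37 lower in R246S livers. Chr18 held 30 of them, Chr1 25, Chr6 21 and Chr15 17, and the other 14 were spread over 8 autosomes. Called probes were sparse even inside the 9 regions, where 33 of 380 passed the threshold, and no run of 3 or more neighbouring called probes was found outside the Chr1 window. The count was 54 without mouse 5901, 61 without 6199, 52 without 6565 and 204 without 6487.

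Trp53 itself could not be placed by name, since the files give positions without genes and no gene table of their build was used. A position was taken from the tumors: on Chr11, 1 probe was below −0.5 in both adenomas of f/f mice and within 0.2 of 0 in all 6 carcinomas of R246S mice, at chr11:69397121-69397180, and it is called the Trp53 anchor probe below. The limits of this rule were chosen after values had been seen, 34 autosomal probes meet it, and 3 Chr11 probes meet it at −0.4. The probes on either side of it did not share this pattern. In the 2 f/f adenomas the anchor probe read −1.34 and −0.85, in the f/+ adenomas −0.03 and −0.52, and in the carcinomas −0.16 to 0.08. In the livers it read −0.14 and −0.42 in the f/f mice 2430 and 6199, −0.08 and −0.16 in the f/+ mice 5884 and 5901, and −0.10, 0.01, −0.19, −0.02 and −0.07 in the R246S mice 6240, 6487, 6565, 6602 and 6642. Floxed livers were lower on average and the groups overlapped. The difference was 0.13 (SD 0.15 in 4 floxed and 0.078 in 5 R246S livers), with p = 0.119 in an exact two-sided permutation test over 126 assignments. In the Cy5 signal alone the difference was 0.26, with an exact permutation p of 0.0238. The probe was picked for a genotype difference in tumors of these mice, which share inherited DNA with the livers. Neither p is therefore independent of that choice. Whether the probe reads recombination of Trp53 was not tested. Mad2l1 and Alb could not be placed in this way and were not analysed here.

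No window within 1, 5, 10 or 20 Mb of the anchor probe was called between R246S and floxed livers, and the first 3 distances held 18, 63 and 125 windows. At an unadjusted p under 0.05 there were 3, 7, 12 and 21 such windows, or 16.7%, 11.1%, 9.6% and 8.61%, beside 9.47% on the rest of Chr11 and 10.7% of all windows. Nor was any of 4873 single probes within 20 Mb called, while 2 of 7624 were on the rest of Chr11. For windows of 10 probes the share within 20 Mb was 13.5%, beside 10.6% on the other autosomes, and for single probes 11.7% beside 10.4%, so whether it lay above or below the genome depended on the number of probes.

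Pooling hid a grading by allele. In chr11:71032791-71347895, 1.64 Mb from the anchor probe, the f/f livers 2430 and 6199 had ratios of −0.62 and −0.49, the f/+ livers 5884 and 5901 of 0.94 and 0.99, the R246S females 6240 and 6602 of 1.21 and 1.21, and the R246S males 6487, 6565 and 6642 of 0.31, 0.32 and 0.31. Among the 6 females, all set against male control DNA, f/f livers were lowest, f/+ livers higher and R246S livers highest. The males, set against female control DNA, lay between f/f and f/+. The pooled difference of 0.47 ± 0.32 (SE) had an adjusted p of 0.613.

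The Cy5 signal removed the split by control DNA. In that window the centred log2 Cy5 signal was −1.83 and −1.87 in the f/f livers, −0.29 and −0.34 in the f/+ livers, and −0.06, −0.02, 0.02, −0.11 and −0.07 in the R246S livers 6240, 6487, 6565, 6602 and 6642. R246S females and males overlapped there, and the 3 genotypes did not. The Cy3 signal of male control DNA was −1.38 to −1.21 on the 6 arrays of females and that of female control DNA −0.36 to −0.31 on the 3 arrays of males, so the control DNAs differed by 0.95 at this place.

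**Figure D3:**
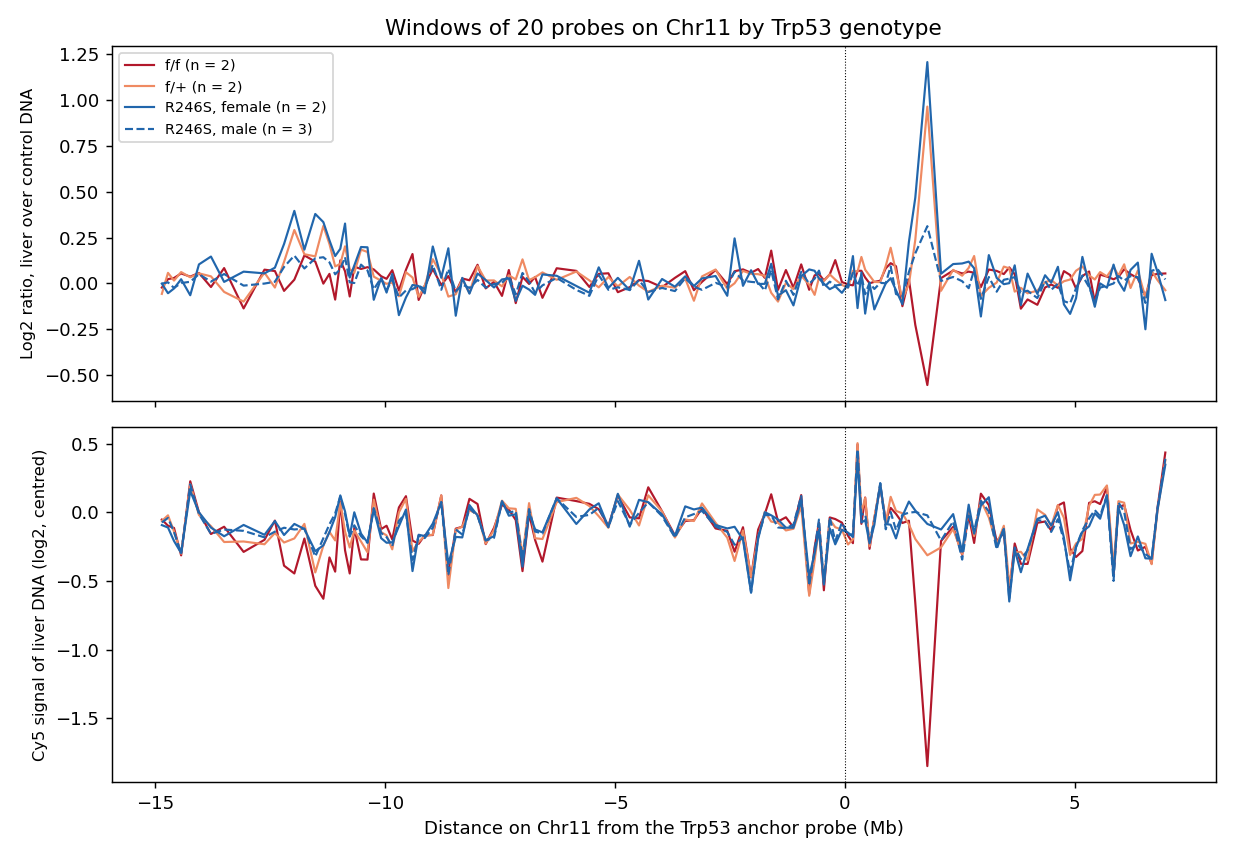
The horizontal axis is the distance on Chr11 from the anchor probe in Mb, with each line joining the means of windows of 20 probes for a genotype and, for R246S, a sex. The upper panel gives the log2 ratio of liver over control DNA and the lower panel the centred log2 Cy5 signal of liver DNA, in which the f/f livers drop to −1.85 at 1.79 Mb, the middle of the window, and lie below the other genotypes near −12 to −11 Mb.

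A fit on the number of floxed Trp53 alleles, with sex as a term, was added after these values had been seen and is given as a description. R246S livers were entered as having no floxed allele, which their label does not state. Whatever else sets R246S apart from floxed livers, scan day included, therefore also enters the slope per allele. It called 2 of 11063 windows (0.0181%), both on Chr11: chr11:70842555-71014358, at −0.35 ± 0.033 (SE) per floxed allele with an adjusted p of 0.000336 in limma, and the window above, at −0.88 ± 0.10 per allele with an adjusted p of 0.00153. It called 24 of 221455 probes (0.0108%), all lower with more floxed alleles, and 14 of these lay on Chr11, which holds 5.64% of autosomal probes. These 14 lay in chr11:57295091-71091744, all within 20 Mb of the anchor probe.

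The 7 of them after the anchor probe formed 2 runs, of 4 probes in chr11:70985031-71032850 and of 3 in chr11:71069588-71091744. In the first run the Cy5 signal was −3.84 and −3.97 in the f/f livers, −0.33 and −0.33 in the f/+ livers, and 0.20 to 0.74 in the R246S livers. In the second it was −4.14 and −4.28, −0.47 and −0.56, and 0.12 to 0.53. The f/+ livers lay below the R246S livers in both runs, with means of −0.33 against 0.39 and of −0.51 against 0.27. The f/f livers lay far below both. The adenomas of the f/f mice read −0.92 and −1.01 in the first run as log2 ratios, those of the f/+ mice 1.56 and 1.09, and the carcinomas of R246S mice 2.74, 2.93 and 2.82 in females and 0.79 to 1.01 in males, the order of the livers.

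**Figure D4:**
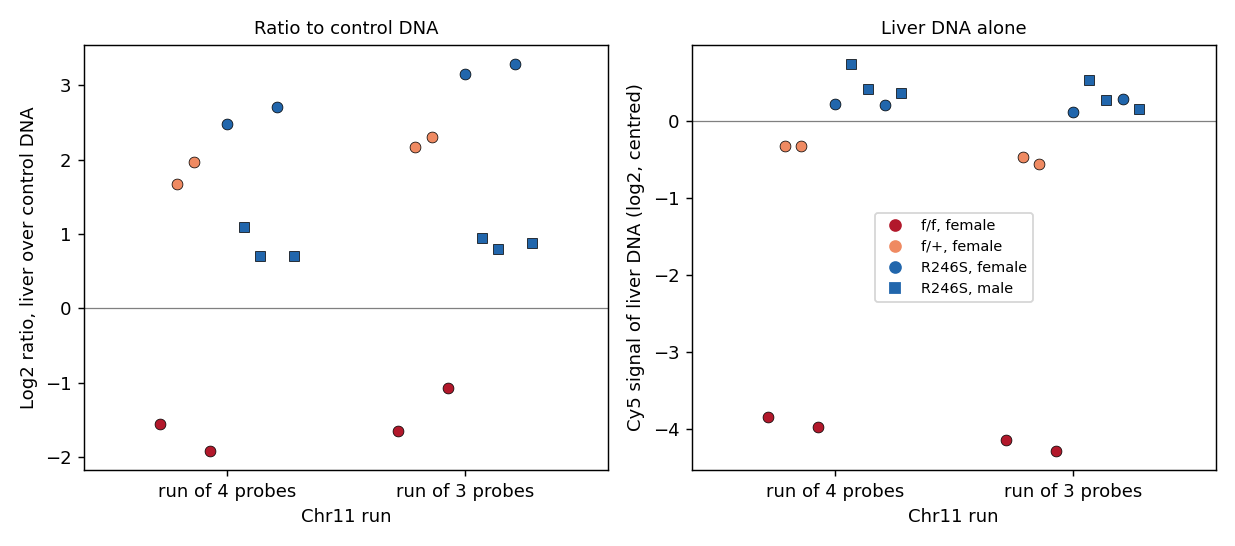
Each point is the mean of a run of Chr11 probes in 1 liver, as log2 ratio of liver over control DNA on the left and as centred log2 Cy5 signal of liver DNA on the right, coloured by genotype, with circles for females and squares for males. On the right, f/f livers lie between −4.28 and −3.84, f/+ livers between −0.56 and −0.33 and R246S livers between 0.12 and 0.74.

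A second stretch of Chr11 lay on the other side of the anchor probe. From the Cy5 signal, an allele number fit without sex as a term called 47 of 11063 windows, 42 lower and 5 higher with more floxed alleles. Other autosomes held 37 of them, 0.354% of their windows. The other 10 lay on Chr11 within 20 Mb of the anchor probe, 4.1% of the windows there. Of these 10, 7 lay between chr11:57088783 and chr11:58671758, before the anchor probe. In chr11:58248302-58377571 the Cy5 signal was −0.54 and −0.32 in the f/f livers, −0.24 and −0.17 in the f/+ livers and −0.05 to 0.02 in the R246S livers. It is the window of the 7 with the lowest adjusted p, and the 3 genotypes lay apart in 3 of the 7, while f/+ and R246S livers overlapped in the other 4. Windows between this stretch and chr11:70842555 were not called. At chr11:74100010-74220721 the Cy5 signal was 0.10 and 0.05 in f/f, 0.00 and −0.08 in f/+ and −0.23 to −0.17 in R246S livers. In the ratio, with sex as a term, the 7 windows of the earlier stretch had adjusted p of 0.1002 to 0.402 in limma for the number of floxed alleles. They passed the threshold only in Cy5, where the fit had no sex term. Whether the channel or the sex term made the difference was not tested.

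Large differences also lay between livers of a genotype. Among the 6 female livers, 14 windows varied by more than 1 log2 unit. The 2 R246S females lay outside the 4 floxed livers in 4 of the 14, a share close to the 26.9% of all windows, and 1 of the 14 was called, the Chr18 window above. In chr7:26735404-27057266 the f/f liver 6199 and the R246S liver 6240 read −1.77 and −2.36, and the other females 0.24 to 0.40. On Chr12, 7 windows between chr12:89285544 and chr12:116781656 had their lowest value in the f/f liver 2430, which read −1.16 in chr12:116289125-116506134 against 0.03 to 0.39 in the other females. In chr4:111917404-112130148 it read −0.67 against 0.25 to 0.58. The tumors of these mice read alike, with −1.22 in the adenoma of 2430 in the Chr12 window, and −1.19 in the adenoma of 6199 and −2.44 and −2.22 in the carcinomas of 6240 in the Chr7 window. The chr9:19092344-19208926 window separated the genotypes at −0.73 to 0.03 against 0.24 to 0.31, without passing the threshold (adjusted p = 0.0884), with liver 6199 the lowest.

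Whole autosomes departed little from 0 in these livers. The aCGH ratio of a chromosome is the mean of its probes, and 133 of the 171 means, 77.8%, lay within 0.05 of 0. In diploid tissue, a loss of a copy in 10% of cells would give −0.074 and in 20% −0.15. The ploidy of the hepatocytes was not measured here. Beyond 0.1 in either direction lay 14 means, 2 in floxed livers and 12 in R246S livers, of which 8 were in mouse 6240. The floxed cases were Chr4 in 5901, at −0.12, and Chr13 in 6199, at −0.14. In 6487 Chr16 read −0.15, and in 6642 Chr4, Chr13 and Chr16 read −0.13, −0.10 and −0.12. No autosome passed 0.1 in 2430, 5884, 6565 or 6602.

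The liver of 6240 was shifted in both directions, with Chr1, Chr2, Chr13 and Chr18 at 0.17, 0.14, 0.13 and 0.20 and Chr4, Chr6, Chr8 and Chr19 at −0.10, −0.15, −0.13 and −0.20. In all 14 cases the 4 equal parts of the chromosome had the same sign, and in Chr18 of 6240 they lay between 0.20 and 0.22. The 14 were picked by their means, which makes such a match likely, and its share among the other means was not computed. The carcinomas of 6240 did not carry the shifts of its liver as a whole, with Chr18 at −0.02 and 0.70 and Chr13 at −0.16 and −0.04. Across the 14 cases, 8 had the sign found in every tumor of the mouse, and in 2 of these the tumor was further from 0, Chr13 of 6199 (−0.28 in its adenoma) and Chr13 of 6642 (−0.36 in its carcinoma). The array of 6240 also had the highest probe noise, 0.42, whose part in these means was not tested. Chr4 was below 0 in all 9 livers, from −0.13 to −0.01.

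**Figure D5:**
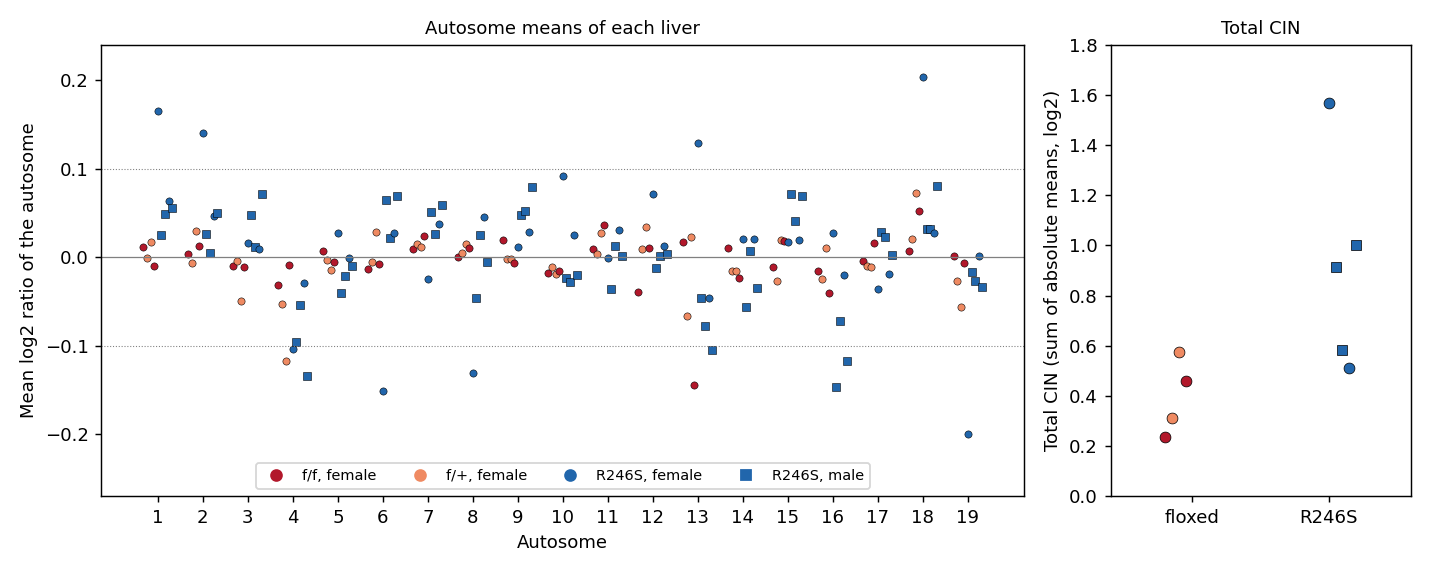
On the left the vertical axis is the mean log2 ratio of each of the 19 autosomes in each liver, with dotted lines at 0.1 and −0.1, and on the right it is Total CIN, the sum of the 19 absolute means, by genotype. Circles are females and squares males. The R246S liver at 1.57 is mouse 6240, and 4 of 5 R246S livers lie above the highest floxed liver, at 0.57.

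No autosome differed between the genotypes after adjustment over the 19, in exact two-sided permutation tests whose smallest p is 0.00794, so that at least 4 autosomes at that p would have been needed for a call. Unadjusted exact permutation p was under 0.05 for 3, namely Chr3 (0.05 higher in R246S livers, p = 0.00794, adjusted 0.151), Chr1 (0.07 higher, p = 0.0159, adjusted 0.151) and Chr9 (0.04 higher, p = 0.0317, adjusted 0.201). On Chr3 the floxed livers read −0.01, 0.00, −0.05 and −0.01 and the R246S livers 0.02, 0.05, 0.01, 0.01 and 0.07. The groups did not overlap there, at a difference below that of a trisomy in 10% of diploid cells, 0.070. Chr11 had a difference of −0.02 (exact permutation p = 0.246).

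Total CIN was 0.24, 0.31, 0.57 and 0.46 in the floxed livers 2430, 5884, 5901 and 6199, and 1.57, 0.91, 0.58, 0.51 and 1.0 in the R246S livers 6240, 6487, 6565, 6602 and 6642. Its means were 0.39 ± 0.15 (SD, n = 4) and 0.92 ± 0.42 (SD, n = 5), and the groups overlapped. The difference of 0.52 had p = 0.0476 in an exact two-sided permutation test. It missed the threshold when 2430, 5884, 6199, 6240, 6487, 6565 or 6642 was left out, with differences of 0.36 without 6240 to 0.62 without 6602 and exact permutation p of up to 0.0893. Among the 6 females, where 15 assignments allow no p below 0.0667, the difference was 0.64 with an exact p of 0.133. In the Cy5 signal alone the difference was 0.089 (exact permutation p = 0.794). Total CIN of the livers lay below that of every tumor of the same mouse, including 6240, whose carcinomas had 1.69 and 2.71.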

How the data were processed

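Genomic DNA of 9 unaffected livers was measured on Agilent 244K arrays against sex-mismatched control liver DNA. The deposited log10 ratios and processed intensities had been background-subtracted and dye-normalized linearly by the authors with Feature Extraction, without lowess, and the deposited table of the series holds the same log10 ratios. Here outlier spots were left out, spots of a probe averaged, and the log10 ratios were converted to log2 before subtracting each array's autosomal median. Median spot intensities, as deposited, served the alternatives. Non-overlapping windows held 20 probes, with a median of 160 kb.

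Windows and probes were tested with limma 3.58.1 (lmFit, eBayes) in R 4.3.3 at a Benjamini-Hochberg adjusted p under 0.05, after a check on simulated data. Single values had exact two-sided permutation tests. The p-values measure the spread between these livers, and precision is bounded by how few arrays there are. Called windows of a sign with at most 2 uncalled between them were joined, the 12 regions of largest difference and all on Chr11 were to be named, and 9 were found. Runs needed 3 called probes with at most 1 uncalled between. The members, lists and tests were chosen with earlier results of these data known. Cy5, Cy3 and allele number fits and values relative to the mean of the own chromosome were added after the data were seen. Gene families, antigen receptor genes, Mad2l1 and Alb were not analysed here, since positions come without gene names. No probe sequences were used.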

Additional observations from a re-analysis of the deposited data

Results flagged for a closer look

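Within each genotype, the highest and lowest liver were checked against the rest of the group for each named region, each autosome mean, Total CIN, the anchor probe and the 3 Chr11 windows of largest difference within 20 Mb of it, 66 groups in all. Chance flags about 1 in 20 groups, and 7 values stood apart, from 3 livers. Mouse 6240 gave 4 of them among the R246S livers, with a mean of 0.165 on Chr1 (the others 0.03 to 0.06), −0.151 on Chr6 (0.02 to 0.07), 0.129 on Chr13 (−0.10 to −0.05) and −0.200 on Chr19 (−0.03 to 0.00). Among the floxed livers, 5901 stood apart on Chr3 at −0.0498 (the others −0.01 to 0.00) and 2430 on Chr9 at 0.0189 (−0.01 to 0.00). Liver 2430 also stood apart in chr11:83436402-83546046, 14.0 Mb from the anchor probe, at −0.439 (the others 0.03 to 0.08).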

How the results depend on the processing

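Against 15 windows, 3 were called among females only, 52 with scan day as a random block, 1 against f/f and 2 against f/+ livers alone, 2 without background correction, 24 when centred on all probes, 8 with probes well above background only, 61 from Cy5 alone, 32 with windows of 10 probes, 2 with the median of the window, 2 by floxed allele number, 47 by allele number from Cy5, and 5 to 30 with a liver left out. The block fit used a negative correlation, −0.098, between livers of a scan day. Scan day largely follows genotype here, so the 52 do not show that allowing for scan day strengthens the difference. Normexp called 0 windows and 0 probes in limma (160 and 3909 at an unadjusted p under 0.05), and it narrowed the probe SD to 0.019 on the narrowest array, against at least 0.25. All 15 windows kept their sign under normexp, without background correction and from Cy5 alone, which follows in part from their choice on the same arrays. Against 107 probes, 318 were called with sex as a term, 49 in females only, 28 against f/f, 44 against f/+, 522 from Cy5, 24 by allele number, 218 by allele number from Cy5, and 52 to 204 with a liver left out. The allele number fits from Cy5 had no sex term, whereas those of the ratio did.

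The Total CIN difference of 0.52 was 0.64 with sex as a term or females only, 0.57 against f/f, 0.47 against f/+, 0.69 with normexp, 0.40 without background correction, 0.38 without centring, 0.42 centred on all probes, 0.52 well above background and 0.089 from Cy5, all past the threshold no longer, and 0.36 to 0.62 with a liver left out. The anchor probe's difference was 0.43 on the shared scan day, between 2 livers that also differ in sex and control DNA. From Cy5 it was 0.26, past the threshold, at a probe picked by genotype in tumors of the same mice. Within 5, 10 and 20 Mb of the anchor probe the allele number fit called 2 windows each, against 0. The number of autosomes called was 0 under all 24 alternatives, but exact tests among females or with sex as a term allow no call, and those with a liver left out or 1 floxed genotype allow one only if many autosomes reach the smallest p together, so these counts say nothing about stability. The cause of the other changes was not tested. No paired analysis was possible because each liver came from a different mouse and the replicate numbers only follow accession order. Scan day could be a block only through 2 livers of a shared day. The planned Mad2l1 alternatives were not run.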
